A study of Mus musculus with 5 samples.

Results

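Crabp1-positive Postn dermal fibroblasts were 328 cells of 10611 that passed the cell filters, in single-cell RNA-seq of mouse ventral skin. A barcode was kept with at least 300 genes and at most 10% of its unique molecular identifiers (UMIs, counts of captured mRNA molecules) from mitochondrial genes. It was called a fibroblast when Col1a1, Col1a2, Col3a1 and Dcn together made up at least 1% of its UMIs and it had no Ptprc UMI, which left 5545 cells. The Crabp1-positive cells were fibroblasts with at least 2 Crabp1 UMIs, fewer than 2 Coch UMIs, fewer than 3 of Cilp and Thbs4, fewer than 2 of Pi16 and Dpp4, and none of Col6a5. They made up 5.92% of fibroblasts. They were chosen by their UMI counts of these genes in the same cells, so differences between them and other fibroblasts are given as descriptions without a test. They are set beside 2646 fibroblasts that met the same exclusions and had no Crabp1 UMI, called Crabp1-zero fibroblasts here.

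The series holds 5 libraries from C57BL/6J mice at postnatal day 28, each made from the pooled ventral skin of 2 animals. WT 1 and WT 2 came from wild-type mice, and Ikkb_cKO 1, 2 and 3 from Prx1Cre+Ikkbf/f mice, in which Cre under Prrx1 regulatory sequence recombines floxed Ikkb alleles in limb-bud mesenchyme and cells that descend from it. Ikkb (gene symbol Ikbkb) encodes the kinase that releases NF-kB from its inhibitors. The labels list neither Cre nor floxed alleles for the wild-type animals. Cells were digested from skin and sorted without debris, dead cells and aggregates. The comparison asks what deleting Ikkb in Prx1-lineage cells does to skin cells, here to the fibroblasts that carry Crabp1.

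The libraries held 14659158 and 16773096 UMIs in WT and 2163166, 2350022 and 9738296 in Ikkb_cKO. The median fibroblast had 4802 and 5262 UMIs in WT and 1543, 1785 and 2448.5 in Ikkb_cKO, so depth differed with genotype. Ikbkb itself read 14.9 and 18.9 CPM (counts of the gene per 1000000 UMIs of the cells summed) in all fibroblasts of WT and 16.5, 20.9 and 15.2 in Ikkb_cKO. These 3′ counts do not show where in the transcript they fall relative to the floxed part, so they check nothing about the deletion. Libraries shared between 0 and 17 barcodes, and none belonged to a Crabp1-positive cell.

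Crabp1 encodes a cytosolic protein that binds retinoic acid and limits how much of it reaches nuclear receptors. In skin it is known as a marker of fibroblasts of the upper dermis and around the hair follicle, layers whose fibroblasts differ from those of the deep dermis and fascia. Postn encodes periostin, a matricellular protein of collagen-rich matrix, Col15a1 a collagen beside basement membranes, and Ccl11 the eosinophil chemokine eotaxin-1.

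In the GRCm38 annotation, Crabp1 (ENSMUSG00000032291) is on chromosome 9 from 54764748 to 54773110, and Postn (ENSMUSG00000027750) on chromosome 3 from 54361109 to 54391037, both on the plus strand. Col15a1 (ENSMUSG00000028339) is on chromosome 4 from 47208161 to 47313167, and Ccl11 (ENSMUSG00000020676) on chromosome 11 from 82057823 to 82062955, both also on the plus strand. Promoters of 300 bases, 250 before to 50 after the RefSeq start in GRCm38.p6, are shown for the gene that defines the cells, for their most abundant marker, and for Cxcl1, a chemokine gene that was lower in these cells than in other fibroblasts of WT and was at 0 in the Ikkb_cKO cells. Capitals mark a TATA box (TATAAA) in Postn and kappa-B letters, the kind that NF-kB binds, in Cxcl1: GGG, 2 bases of any kind, TT, 1 base of any kind and CC.
Crabp1, chr9:54764498-54764797, plus strand: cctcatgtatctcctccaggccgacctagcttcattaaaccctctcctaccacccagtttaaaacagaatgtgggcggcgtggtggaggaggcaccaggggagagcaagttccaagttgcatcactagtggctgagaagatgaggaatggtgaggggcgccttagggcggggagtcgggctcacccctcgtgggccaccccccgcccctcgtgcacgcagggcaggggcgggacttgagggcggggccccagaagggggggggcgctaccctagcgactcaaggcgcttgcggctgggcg
Postn, chr3:54360857-54361156, plus strand: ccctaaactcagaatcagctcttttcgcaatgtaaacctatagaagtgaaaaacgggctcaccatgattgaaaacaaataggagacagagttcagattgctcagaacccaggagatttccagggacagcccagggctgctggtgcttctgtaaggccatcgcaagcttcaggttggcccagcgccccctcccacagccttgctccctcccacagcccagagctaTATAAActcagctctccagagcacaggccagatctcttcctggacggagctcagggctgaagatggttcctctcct
Cxcl1, chr5:90890995-90891294, plus strand: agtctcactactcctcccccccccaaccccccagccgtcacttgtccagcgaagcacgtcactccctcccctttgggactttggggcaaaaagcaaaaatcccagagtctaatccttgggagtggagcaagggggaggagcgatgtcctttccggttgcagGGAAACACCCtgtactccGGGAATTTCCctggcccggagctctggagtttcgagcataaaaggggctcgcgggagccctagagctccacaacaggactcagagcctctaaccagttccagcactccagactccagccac
The Crabp1 promoter held none of the 3 motifs searched on both strands, which were these and an interferon type (GAAA, 2 bases of any kind, GAAA). It was 65% G and C with 17 CpG dinucleotides, against a median of 52.7% and 7 over 32851 mouse promoters of this length. The Postn match began 26 bases before the start (position -26). Cxcl1 held 2 matches, at positions -71 and -89 counted on the plus strand. Of all these promoters, 13.6% held the TATA box, 4.79% the kappa-B letters and 3.44% the interferon type. A match describes letters only.

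The markers given with the label were read first. Postn read 7582 CPM in WT 1 and 6499 in WT 2, against 3678 and 3765 in the Crabp1-zero fibroblasts. A Postn UMI was found in 98.6% and 98.3% of the WT Crabp1-positive cells and in 69.5% and 71.7% of Crabp1-zero fibroblasts. Thinned to 1500 UMIs per cell, the shares were 97.8% and 97.7% against 65.8% and 68.0%, so the higher depth of the Crabp1-positive cells (medians of 7915 and 8730.5 UMIs against 3719 and 4248) left the difference in place. Ccl11 stood at 1252 and 1528 CPM against 675 and 736, and Col15a1 at 873 and 1022 against 510 and 582. The 3 given markers that the rule did not use were therefore higher in both WT libraries. The fourth, Crabp1, was set by the rule. These markers came with the label, and the rule was chosen with earlier results of these data known. Their levels therefore describe the cells and are no independent check of the label.

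In Ikkb_cKO the marker levels matched the label less well. Postn was 7977 CPM in the 2 cells of Ikkb_cKO 2 and 1098 in the 13 cells of Ikkb_cKO 3, where the Crabp1-zero fibroblasts had 3635. In Ikkb_cKO 3, 6 of 13 cells carried a Postn UMI, and 35 of the 55 Postn UMIs sat in 1 cell. Ccl11 was 253 and 280 CPM in these libraries, below both WT values, and Col15a1 507 and 559. Ikkb_cKO 1 had no Crabp1-positive cell. Cells of Ikkb_cKO 3 are therefore named by the rule and not by the label.

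**Figure D1:**
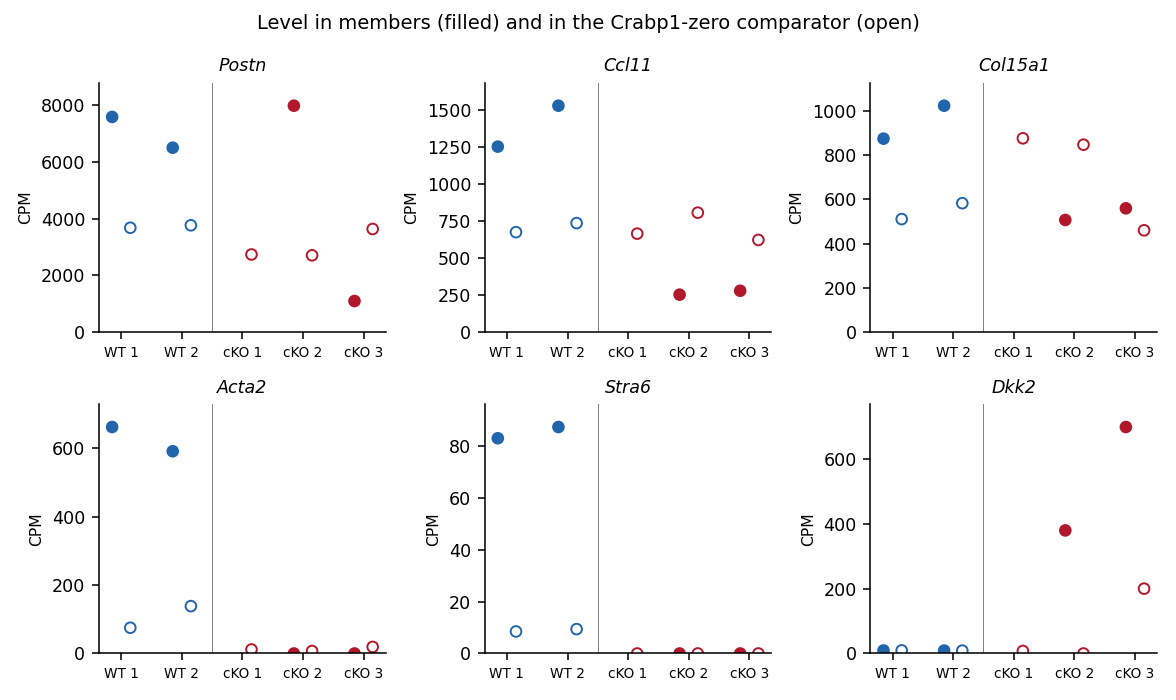
Level of 6 genes in CPM (vertical axis) by library, with filled points for Crabp1-positive cells and open points for Crabp1-zero fibroblasts. In WT the filled points are above the open ones for all 6 genes except Dkk2, while Ikkb_cKO 3 is high for Dkk2 and low for Postn, and Ikkb_cKO 1 has no filled point.

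Markers of most other skin cell types were low. Summed CPM of 11 keratinocyte markers was 66.1 and 73.1 in the WT Crabp1-positive cells against 756 and 1338 in non-fibroblast cells. The 12 myeloid markers summed to 41.5 and 184 against 38580 and 38960, and the 9 mural-cell markers to 28.0 and 31.7 against 282 and 332. Lymphocyte markers summed to 0.847 and 1.94, and endothelial markers to 10.2 and 18.1. Schwann-cell markers, led by genes that fibroblasts also express, summed to 220 and 209, beside the 256 and 230 of Crabp1-zero fibroblasts and 495 and 253 of non-fibroblast cells. Melanocyte markers summed to 81.3 and 65.4, with 4 of 6 at 0, beside 88.6 and 79.1 in Crabp1-zero fibroblasts and 30.8 and 31.2 in non-fibroblast cells. Their part in other values was not tested. As a background level, 0.630% and 0.569% of Ptprc-positive leukocytes in WT (medians of 3353 and 3784 UMIs) had a Crabp1 UMI, against 14.1% and 14.8% of fibroblasts.

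Crabp1-positive cells were scarce in Ikkb_cKO. They numbered 139 of 1790 fibroblasts in WT 1 and 174 of 1915 in WT 2. Ikkb_cKO 1 had 0 of 513, Ikkb_cKO 2 had 2 of 467 and Ikkb_cKO 3 had 13 of 860. The shares were 7.77% (95% exact binomial interval 6.57 to 9.10) and 9.09% (7.84 to 10.5) in WT. In Ikkb_cKO they were 0, which allows a share of up to 0.585% at 3 counts, 0.428% (0.0519 to 1.54) and 1.51% (0.807 to 2.57). The genotypes did not overlap. WT libraries averaged 8.43% ± 0.934 (SD, n = 2) and Ikkb_cKO libraries 0.647% ± 0.779 (SD, n = 3). The difference was -7.78 percentage points (exact two-sided permutation test, p = 0.1, the smallest that 2 against 3 libraries allow). Under a stricter cell filter (500 genes, and a mitochondrial limit of 5%), 5 of the 13 cells of Ikkb_cKO 3 were left and its share was 0.769%, against 8.27% and 9.64% in WT. Intervals and floors here cover counting error only.

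Because the rule counts UMIs and the Ikkb_cKO libraries were shallower, every kept cell with at least 1500 UMIs was thinned to that number. The fibroblast criteria and the rule were then applied to the thinned counts. The depth limit left out 179 and 179 fibroblasts in WT and 250, 190 and 243 in Ikkb_cKO. The shares became 3.79% and 4.43% in WT and 0 (limit 1.14%), 0.356% and 1.29% in Ikkb_cKO. The libraries again did not overlap, with a difference of -3.56 percentage points (exact permutation test, p = 0.1). The scarcity therefore remained at a fixed depth, at a smaller size. Thinning also changed which cells met the exclusions. In WT, 1272 of 1610 and 1334 of 1739 fibroblasts met them at 1500 UMIs, against 1181 of 1790 and 1222 of 1915 before. In Ikkb_cKO it was 78 of 264, 77 of 281 and 351 of 618, against 155 of 513, 152 of 467 and 438 of 860.

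The exclusions of the rule acted differently in Ikkb_cKO 3. Before them, fibroblasts with at least 2 Crabp1 UMIs numbered 153 and 193 in WT and 0, 2 and 45 in Ikkb_cKO. The exclusions removed 9.15% and 9.84% of these in WT and 71.1% in Ikkb_cKO 3. Coch, the gene of the extracellular protein cochlin, accounted for most of it: 30 of 45 such cells (66.7%) carried at least 2 Coch UMIs in Ikkb_cKO 3, against 5 of 346 (1.45%) in both WT libraries. Col6a5, carried by 65.7%, 63.0% and 22.3% of Ikkb_cKO fibroblasts against 0.782% and 0.574% in WT, removed almost no cell with Crabp1, since only 1 fibroblast with at least 2 Crabp1 UMIs carried it.

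Any Crabp1 UMI, with no exclusion, was present in 14.1% and 14.8% of WT fibroblasts and in 0, 0.857% and 8.37% of Ikkb_cKO fibroblasts (exact permutation test, p = 0.2). At 1500 UMIs those shares were 7.45% and 8.45% against 0, 1.07% and 8.25% (p = 0.3, exact permutation test). At fixed depth Ikkb_cKO 3 thus lay between the WT libraries, whereas Ikkb_cKO 1 and 2 stayed low. The summed Crabp1 level over all fibroblasts was 175 and 192 CPM in WT and 0, 28.5 and 227 in Ikkb_cKO, so by this measure Ikkb_cKO 3 was above both WT libraries. In such a sum, fewer cells of a type and less RNA per cell cannot be told apart.

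**Figure D2:**
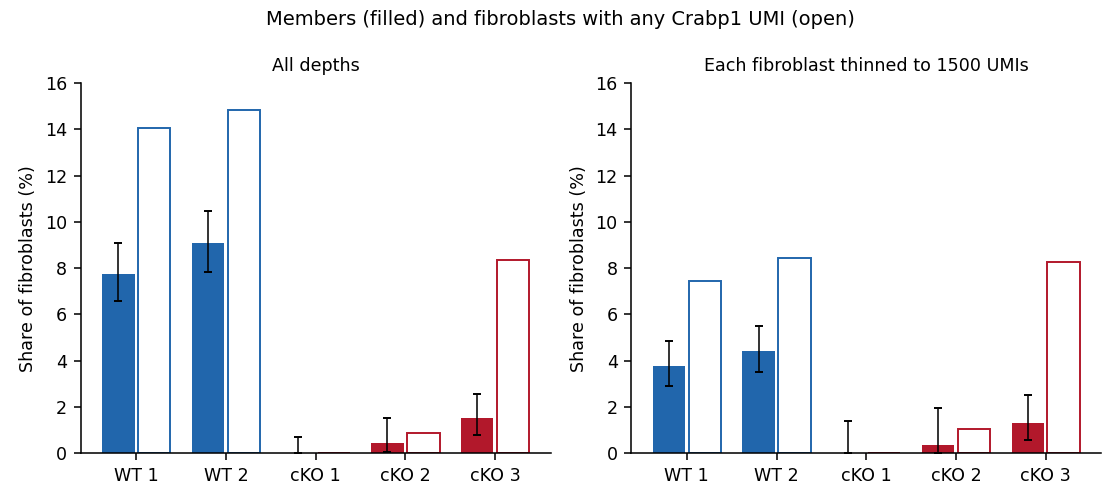
Percent of fibroblasts (vertical axis) that met the whole rule (filled bars, with 95% exact binomial intervals) or had any Crabp1 UMI (open bars), by library, at all depths on the left and thinned to 1500 UMIs on the right. Filled bars are lower in every Ikkb_cKO library than in either WT library, while the open bar of Ikkb_cKO 3 reaches the WT level at fixed depth.

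Cells on either side of the threshold of 2 UMIs were compared. Fibroblasts that met the exclusions with exactly 1 Crabp1 UMI, just outside, numbered 77 and 79 in WT. Those with exactly 2, just inside, numbered 28 and 33. In WT 1, Postn read 3678 CPM at 0 Crabp1 UMIs, 6120 at 1, 8572 at 2 and 7297 above 2. C3, the central complement component, read 816, 37.4, 7.58 and 31.6 CPM over the same classes, and Col7a1, the anchoring-fibril collagen, 7.44, 29.9, 49.3 and 116. Levels did not move in steps with the Crabp1 count for every gene. In WT 2, Postn read 3765, 5878, 4836 and 6841 CPM, higher at 1 UMI than at 2, and C3 738, 171, 64.5 and 28.9. In both WT libraries, cells just outside had more Postn and less C3 than Crabp1-zero fibroblasts. In Ikkb_cKO 3 Postn read 3635, 2924, 1662 and 1003 CPM over these classes. They held 408, 17, 3 and 10 cells, and 1 cell above 2 Crabp1 UMIs held 35 Postn UMIs. These few cells cannot carry an order of levels.

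The WT Crabp1-positive cells differed from Crabp1-zero fibroblasts in many genes beyond the markers. The leading genes were ranked by the ratio of CPM + 10 to that of Crabp1-zero fibroblasts, first by the median over the libraries with such cells and then in WT alone, a ranking added after the data were seen. The lists of 15 genes shared 3 genes, and 27 genes stood in either. Col7a1 led both, at 101 and 114 CPM against 7.44 and 12.4. Entpd1, the ectonucleotidase CD39 that degrades extracellular ATP, read 200 and 199 CPM against 44.2 and 44.4. Thinned to 1500 UMIs, 22.5% and 16.4% of the cells had an Entpd1 UMI against 4.77% and 4.71%.

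Several secreted or surface products belonged to this group. Il34, a ligand of the macrophage receptor Csf1r, read 158 and 195 CPM against 38.7 and 38.1. Tnfrsf18, the costimulatory receptor GITR, read 117 and 120 against 25.9 and 24.6. Tnfrsf18 UMIs were found in 44.6% and 41.4% of the cells, against 5.08% and 6.30% of Crabp1-zero fibroblasts and 14.7% and 14.4% of Ptprc-positive leukocytes in the same libraries, which were shallower. At 1500 UMIs the shares were 15.9% and 12.9%, against 1.59% and 2.54% of Crabp1-zero fibroblasts and 9.46% and 9.48% of leukocytes. Crispld1, a cysteine-rich secreted protein, read 374 and 381 CPM against 94.8 and 110. Angpt2, a ligand of the endothelial receptor Tie2, read 136 and 111 against 32.7 and 29.9. For each of these genes both WT values lay above both Crabp1-zero values.

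Genes of matrix and of the contractile cytoskeleton formed another part. Cthrc1, a secreted protein of collagen-rich matrix, read 441 and 382 CPM against 130 and 128, and Lrrc15, a membrane protein of activated fibroblasts, 163 and 165 against 43.6 and 55.6. Fbn2, a microfibril fibrillin, read 125 and 161 against 25.3 and 33.3, and Eln, elastin, 745 and 712 against 276 and 302. Acta2, smooth-muscle actin, read 662 and 591 against 75.2 and 138, and Palld, an actin-bundling scaffold, 851 and 840 against 272 and 304. Pdgfrb, a platelet-derived growth factor receptor, read 291 and 317 against 116 and 126. The cell-cycle inhibitor Cdkn1c was among the most abundant leading genes, at 1749 and 1116 CPM against 392 and 351.

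Lower in these cells were genes of defence and of the deeper layers. C3 read 26.3 and 34.9 CPM against 816 and 738, and C4b, another complement component, 7.62 and 14.2 against 177 and 177. Gpx3, a secreted glutathione peroxidase, read 46.6 and 44.6 against 982 and 954, and Gsn, the actin-severing gelsolin, 1120 and 1088 against 9825 and 8590. Fabp4, a fatty-acid carrier of adipocyte-lineage cells, read 598 and 485 against 3499 and 3637. Ly6a (Sca-1), a surface protein of deep fibroblasts, read 181 and 244 against 2164 and 1948, and Ccl7, a monocyte chemokine, 111 and 141 against 1340 and 1191. A C3 UMI was present in 5.76% and 12.6% of the Crabp1-positive cells against 57.5% and 53.4% of Crabp1-zero fibroblasts, although the former were sequenced more deeply.

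**Figure D3:**
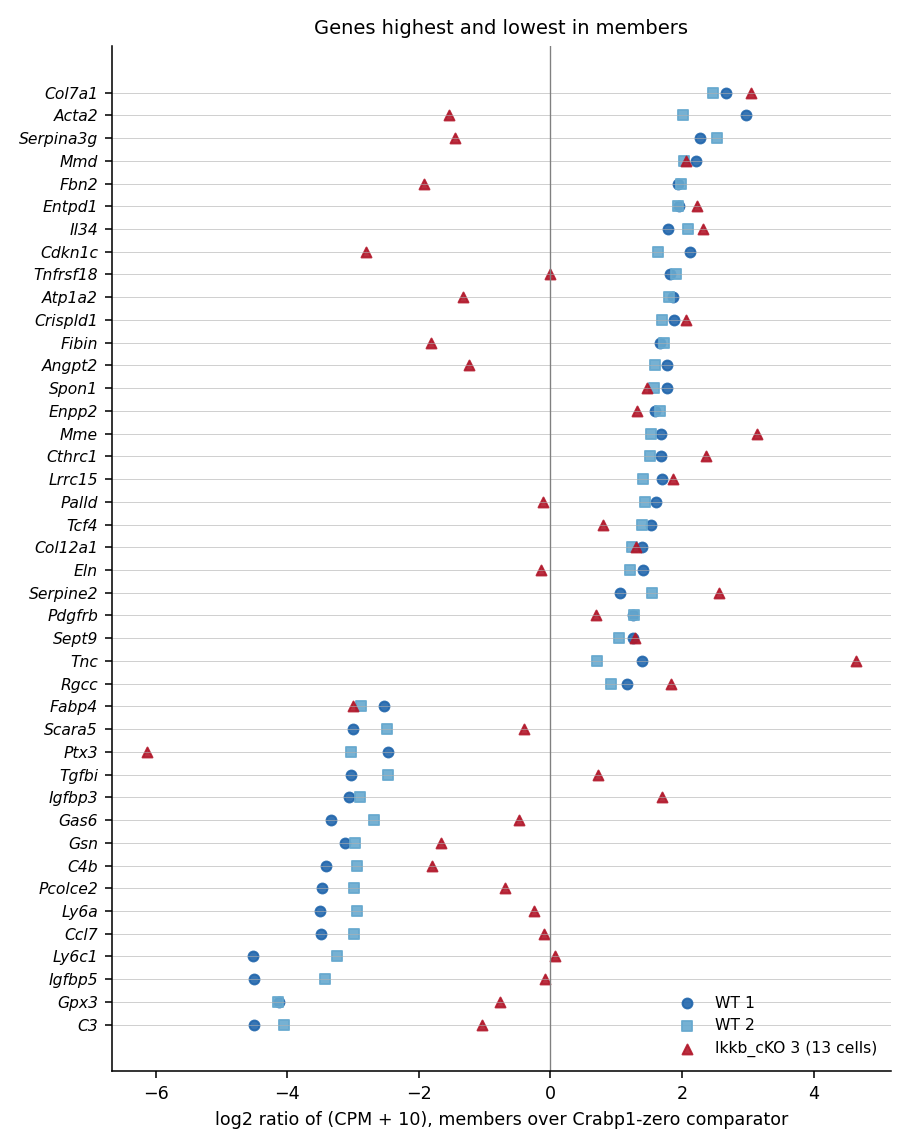
Log2 ratio of CPM + 10 in Crabp1-positive cells over Crabp1-zero fibroblasts (horizontal axis) for the 27 leading and 15 lowest genes, with 1 point each for WT 1, WT 2 and Ikkb_cKO 3. The WT points lie close together, and Ikkb_cKO 3 departs from them in several genes, among them Acta2 and Igfbp5.

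Gene lists were counted next. Of 8091 genes measured (10 CPM or more), 357 (4.41%) were at least 1.5-fold higher in both WT libraries and 421 (5.2%) at least 1.5-fold lower, with a median log2 ratio of 0.0876. Genes of the rule are left out of the list counts here. Of 10 measured papillary-dermis genes, 5 were higher (Inmt, Axin2, Lrig1, Rspo1 and Col13a1) and 1, Ntn1, was lower, with a median of 0.55. Of 13 reticular-dermis genes, 6 were lower and 2 higher (median -0.402). Of 13 fascia genes, 8 were lower and 1 higher (median -0.979), in cells from which the rule had removed those with Pi16 and Dpp4. Of 14 preadipocyte genes, 7 were lower and 0 higher (median -0.603).

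Of 6 measured genes of the dermal papilla, the follicle's signalling centre, 2 were higher and 3 lower (median -0.361). Fgf10, a papilla growth factor, read 5.08 and 10.4 CPM against 63.7 and 80.1. Corin and Sox2, other papilla markers, were at 0 in the WT Crabp1-positive cells and in at most 0.413% of WT Crabp1-zero fibroblasts, so they set neither apart. Of 9 dermal-sheath genes, which mark the contractile cells around the follicle, 4 were higher (Acta2, Mylk, Itga8 and Col11a1) and 2 lower. Rgs5 and Myh11, of pericytes and vascular muscle, read at most 3.24 and 9.06 CPM.

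Retinoid genes were split, with 3 of 20 higher and 5 lower (median -0.0676). Stra6, the receptor that takes up retinol from its plasma carrier, read 83.01 and 87.4 CPM against 8.50 and 9.40. At 1500 UMIs a Stra6 UMI was present in 16.7% and 11.1% of the cells against 1.35% and 1.21%. Cyp26b1, which degrades retinoic acid, read 0 and 0.647 against 23.8 and 16.7, and Rbp4, Adh1, Adh7 and Rarres2 were also lower. Crabp2, the family member that carries retinoic acid to nuclear receptors, read 0 and 1.29 CPM in the WT Crabp1-positive cells.

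Matrix lists differed in direction. Of 16 elastic-fibre genes, 5 were higher (Eln, Fbn2, Mfap2, Emilin1 and Loxl1) and 2 lower (median 0.16). Of 12 basement-membrane and beaded collagens, 3 were higher (Col7a1, Col15a1 and Col13a1) and 1 lower, and of 8 fibrillar collagens 3 were higher and 0 lower. Of 11 small leucine-rich proteoglycans and related genes 0 were higher and 4 lower, of 13 matricellular genes 3 were higher and 5 lower, and of 18 metalloproteases and inhibitors 1 was higher and 4 lower. Collagen processing (2 and 2 of 23) and hyaluronan genes (1 and 1 of 9) were even. Among 18 Wnt modulators and targets, 7 were higher and 3 lower (median 0.619).

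Of the immune lists, several held mostly lower genes. Of 32 interferon-response genes, 21 were lower and 1 higher (median -0.824), and of 10 complement genes 7 were lower and 0 higher (median -1.18). Of 26 NF-kB target genes, 8 were lower and 0 higher (median -0.41). Of 15 chemokines, 6 were lower and 2 higher. Cytokines and alarmins (2 higher and 1 lower of 6) and the response to interleukins 4 and 13 with STAT5 targets (3 and 3 of 13) did not share this. Cxcl1, the neutrophil attractant, read 1033 and 819 CPM against 1682 and 1748, and Cxcl12, the ligand of Cxcr4, 233 and 274 against 534 and 480. Of 22 immediate-early genes, 10 were lower and 0 higher (median -0.673), and of 24 cell-cycle genes none reached 1.5-fold either way.

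Of 24 mesenchymal transcription factors, 5 were higher and 5 lower. Prrx1, whose regulatory sequence drives the Cre, read 59.3 and 54.4 CPM in the WT Crabp1-positive cells against 144 and 150 in Crabp1-zero fibroblasts. It was thus detected but lower. The genes with the pattern most like Crabp1 over 8 library sums of both kinds of cell were Fam20a (Pearson r 0.980), Tcf4 (0.971), Htatsf1 (0.969), Nlgn2 (0.955) and Mme (0.950). Since the rule sets Crabp1 to 0 in one kind of cell, this mostly restates the split, and the sums share libraries and depth. Tcf4, a basic helix-loop-helix factor, read 884 and 902 CPM against 299 and 339, and Mme, the membrane peptidase neprilysin, 153 and 150 against 40.8 and 45.3.

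The Crabp1-positive cells were not uniform. The median cell held 5 and 6 Crabp1 UMIs in WT 1 and WT 2, and the highest held 106 in each library. Acta2 was concentrated: the 10% of cells with most of it held 83.4% and 88.4% of its UMIs. Cells with at least 10 Acta2 UMIs numbered 20 in each WT library, 14.4% and 11.5% of the Crabp1-positive cells, a split made after the data were seen. They had more UMIs than the others, with medians of 11320 and 13560 against 7527 and 8302, so CPM are compared.

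Acta2-high cells carried some other contractile genes. Tagln, an actin-binding protein of smooth muscle, read 1639 and 1016 CPM against 88.9 and 96.6 in the other Crabp1-positive cells. Tpm1, a tropomyosin, read 870 and 932 against 235 and 264, and Myl9, a myosin light chain, 170 and 191 against 54.6 and 58.1. Mylk, a myosin kinase, read 32.4 and 88.4 against 41.8 and 25.9, in opposite directions, and the calponin gene Cnn1 was at 0 in the Acta2-high cells. Tnc, the matricellular protein tenascin-C, read 619 and 361 against 37.5 and 84.8, and the chemokine Ccl12 340 and 398 against 34.3 and 87.1. Lower were Clec3b (tetranectin) at 12.1 and 0 against 622 and 616, the protease Mmp3 at 0 and 0 against 318 and 242, the metallothionein Mt1 at 239 and 151 against 4178 and 2879, and the Wnt modulator Sfrp2 at 16.2 and 33.1 against 598 and 415. Postn, at 6254 and 5670 against 7933 and 6676, was high in both. Pecam1 and Corin were at 0 in the Acta2-high cells, Rgs5 read 0 and 18.4 CPM and Myh11 0 and 51.5.

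The leading genes were then followed across genotypes in the larger pool of fibroblasts. Summed counts of each library were compared between Ikkb_cKO and WT with edgeR's quasi-likelihood test and Benjamini-Hochberg adjustment, calling adjusted p under 0.05. The fits covered Crabp1-zero fibroblasts and, added after the data were seen, all fibroblasts, which contain the Crabp1-positive cells. Nothing in the labels says more of the replicates than that they are separate pools, so p-values measure the spread between these libraries.

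In Crabp1-zero fibroblasts 16.1% of 8330 genes fell and 15.4% rose. In all fibroblasts 18.2% of 10447 fell and 17.6% rose. Of the 15 genes of the all-library ranking, 5 fell and 0 rose in each fit, with median log2 fold changes of -0.401 and -0.452 against 0.0113 and 0.0352 over all genes. No count is given for the genes ranked in WT alone, which were picked for being high there. The WT Crabp1-zero values entered the ranking, and the 2 fits share cells. The sum of all fibroblasts also holds the WT Crabp1-positive cells, so falls there are favoured for genes high in them.

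Among the genes that fell, Il34 was nearly absent from Ikkb_cKO. In Crabp1-zero fibroblasts it read 38.7 and 38.1 CPM in WT and 0 in all 3 Ikkb_cKO libraries, at least 20.2-fold lower against 3 counts over the group. In all fibroblasts it read 43.7 and 54.8 in WT and 1.03, 1.90 and 3.90 in Ikkb_cKO, with no overlap (log2 fold change -4.16, SE 0.346, edgeR adjusted p = 0.00146). Tnfrsf18 gave 705 UMIs in all WT fibroblasts and 2 in Ikkb_cKO, a 73.0-fold ratio of CPM (counting interval 20.1 to 604). Stra6 gave 393 UMIs in WT fibroblasts and 0 in Ikkb_cKO, at least 27.1-fold lower. Of those 393 UMIs, 233 came from the WT Crabp1-positive cells, so this bound partly restates the scarcity of such cells in Ikkb_cKO. In Crabp1-zero fibroblasts Stra6 read 8.50 and 9.40 CPM in WT, and no Ikkb_cKO cell carried a UMI. At unequal depth, a Tnfrsf18 UMI was found in 5.08% and 6.30% of WT Crabp1-zero fibroblasts and in 0.645%, 0 and 0 of Ikkb_cKO ones.

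Crispld1 read 94.8 and 110 CPM in WT Crabp1-zero fibroblasts and 11.7, 25.2 and 1.92 in Ikkb_cKO. All 3 Ikkb_cKO values were lower than both WT values (log2 fold change -3.70, SE 0.513, edgeR adjusted p = 0.00179). Mmd, a membrane protein first described in maturing macrophages, read 47.4 and 62.4 against 3.89, 3.601 and 6.73, also without overlap (-3.30, SE 0.369, edgeR adjusted p = 0.000739). Cthrc1 fell by 2.01 on the log2 scale in these cells (SE 0.259, edgeR adjusted p = 0.00116) and by 2.45 in all fibroblasts (SE 0.294, adjusted p = 0.00264), where it read 182 and 192 CPM against 20.6, 32.3 and 46.8. Acta2 fell by 2.83 (SE 0.4, edgeR adjusted p = 0.00159) in Crabp1-zero fibroblasts, and Tnc, Serpine2, Sept9, Palld, Angpt2 and Spon1 fell in both fits.

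**Figure D4:**
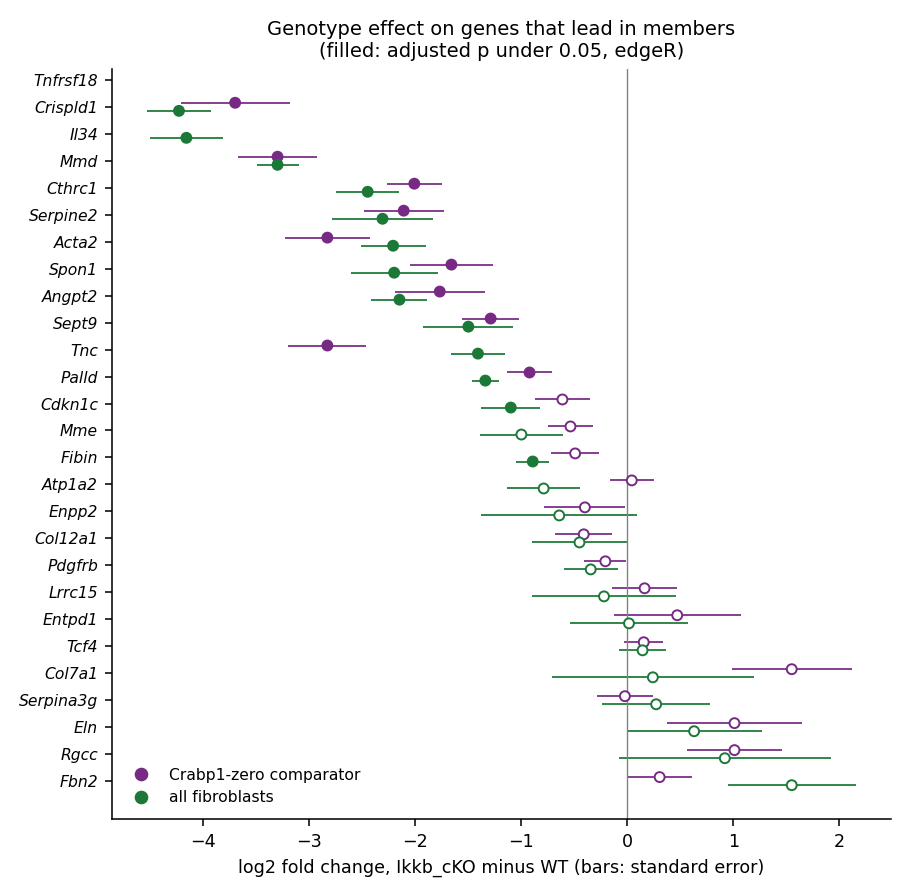
Log2 fold change of Ikkb_cKO over WT (horizontal axis, bars are standard errors) for the 27 leading genes in Crabp1-zero fibroblasts (purple) and all fibroblasts (green), filled where the edgeR adjusted p was under 0.05. Fitted values of genes with 3 or fewer UMIs in a genotype are not drawn. Genes ranked in WT alone were picked for being high there, and all fibroblasts hold the WT Crabp1-positive cells. The shared direction of the points is therefore not read as a result.

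Other leading genes split the Ikkb_cKO libraries. Col7a1 in all fibroblasts read 18.6 and 30.2 CPM in WT, 4.12 and 4.74 in Ikkb_cKO 1 and 2, and 63.5 in Ikkb_cKO 3. Entpd1 read 56.7 and 62.0 in WT, then 35.0, 29.4 and 107. Rgcc, a regulator of the cell cycle induced by complement, read 54.6 and 56.4, then 33.0, 20.9 and 245. In each case Ikkb_cKO 1 and 2 lay below WT and Ikkb_cKO 3 above it, and none was called. Without Ikkb_cKO 3 the log2 fold changes were -2.51, -0.93 and -1.10. Without that library the all-library ranking gave 8 falls in Crabp1-zero fibroblasts, where 13.05% of all genes fell, and 12 in all fibroblasts, where 24.75% fell. Without WT 1 it gave 3 in each fit (2.31% and 2.79% of all genes fell) and without WT 2 it gave 2 in each (2.18% and 3.04%). With the replicate number as a block it gave 7 and 14, beside 12.45% and 25.93% of all genes. Ikkb_cKO 3 is the only library with its number, so the block takes that library out of the genotype estimate, much as leaving it out does.

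**Figure D5:**
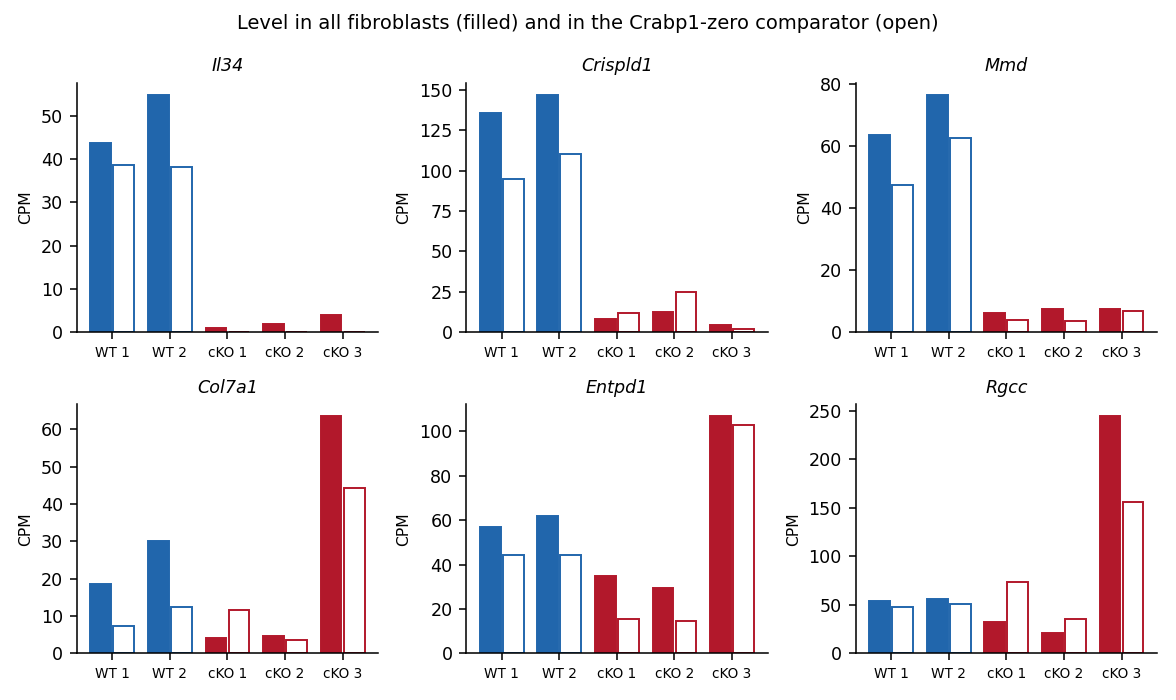
Level in CPM (vertical axis) of 6 leading genes by library, in all fibroblasts (filled bars) and Crabp1-zero fibroblasts (open bars). Il34, Crispld1 and Mmd are low in every Ikkb_cKO library, whereas Col7a1, Entpd1 and Rgcc are low in Ikkb_cKO 1 and 2 and high in Ikkb_cKO 3.

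The label's own markers were not called in Crabp1-zero fibroblasts. There Postn read 2737, 2708 and 3635 CPM in Ikkb_cKO against 3678 and 3765 in WT (log2 fold change -0.36, edgeR adjusted p = 0.129). Ccl11 read 665, 807 and 622 against 675 and 736 (-0.09, edgeR adjusted p = 0.691), and Col15a1 875, 846 and 460 against 510 and 582 (0.32, edgeR adjusted p = 0.329). With fibroblasts that carry Col6a5 added to this group the signs of the 3 turned, to 0.40, 0.62 and -0.66. Prrx1 rose in all fibroblasts by 0.91 (SE 0.137, edgeR adjusted p = 0.00434). Its log2 fold change was 0.55 in Crabp1-zero fibroblasts, which was not called (edgeR adjusted p = 0.0713).

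The 15 Crabp1-positive cells of Ikkb_cKO can only be described cell by cell. In Ikkb_cKO 2, the 2 cells held 2803 and 5095 UMIs, with 24 and 4 of Crabp1 and 20 and 43 of Postn. They had Postn as the WT cells did. In Ikkb_cKO 3 the 13 cells held 1501 to 9294 UMIs and 2 to 9 Crabp1 UMIs. Their median of 3107 UMIs was under the WT medians, and their mitochondrial share of 5.31% was above the 1.98% and 1.94% of WT.

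Those 13 cells carried genes that the WT cells had at low level. Dkk2, a secreted Wnt inhibitor, was found in 9 of 13 cells at 699 CPM, against 9.32 and 9.06 CPM in the WT Crabp1-positive cells. Of the 13, 6 had Dkk2 without Postn, 3 Postn without Dkk2, 3 both and 1 neither. In WT 1 the same counts were 1, 133, 4 and 1. Pdpn, the membrane glycoprotein podoplanin, read 459 CPM against 76.2 and 69.9, Apcdd1, a Wnt inhibitor, 99.8 against 12.7 and 3.24, and Ntn1, the guidance molecule netrin-1, 260 against 11.9 and 12.9. Igfbp2, which binds insulin-like growth factors, was in 8 of 13 cells and read 1777 CPM against 81.3 and 68.6. Of its 89 UMIs, 66.3% were in 2 cells and 34 in 1 cell. The Crabp1-zero fibroblasts of Ikkb_cKO 3 had part of this: Igfbp2 read 372 CPM there against 5.52 and 5.45 in WT, Dkk2 200 against 9.56 and 8.83, Ntn1 161 against 45.0 and 35.1, and Pdpn 277 against 78.4 and 73.3. Higher levels of these genes were thus not particular to the 13 cells. Col7a1 was in 8 cells and Entpd1 in 10, so these leading genes were shared with WT.

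Other WT features were at 0 in Ikkb_cKO 3: Acta2, Stra6, Tnfrsf18, Nes, Map2, Cxcl1 and Isg15. A count of 0 in the 50086 UMIs of these cells allows up to 59.9 CPM. Some high values rested on single cells. Ccl7 had 93 of 137 UMIs in 1 cell, all 28 Igfbp3 UMIs were in 1 cell, and Gpx3 had 21 of 23 in 1 cell. Igfbp5, another insulin-like growth factor binding protein, was spread over 9 cells with 66 UMIs.

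A fit of these 13 cells against the WT Crabp1-positive cells rests on a single Ikkb_cKO library, assumed to vary like WT, so it compares that library with 2 others. Of 8873 genes tested with edgeR, 253 (2.85%) rose and 539 (6.07%) fell at adjusted p under 0.05, and the median log2 fold change over all genes was -0.715. The balance depended on the method: limma gave more rises than falls, and the DESeq2 Wald test and edgeR with equal cell numbers nearly even counts. With equal cell numbers only 2684 genes were tested. On the log2 scale Postn fell by 3.06, Ccl11 by 2.70 and Col15a1 by 1.14. No spread between Ikkb_cKO libraries enters these values. The 55 Postn UMIs behind the fall of Postn come from 6 cells, and 35 of them from 1 cell. The largest rises were Igfbp5 (5.33), Aspn, the proteoglycan asporin (4.70), Igfbp2 (4.19), Ccl7 (4.04) and Ly6c1 (3.66).

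Falls ended at 0 for most named genes and are lower bounds against 3 counts. Cxcl1 was at least 15.2-fold lower, Acta2 at least 10.4-fold, Fabp4 at least 8.91-fold, the prostacyclin synthase Ptgis at least 7.60-fold and the opioid precursor Penk at least 6.63-fold. The Acta2 level of WT came mostly from the Acta2-high cells, and the other WT cells, at 40.7 and 67.5 CPM, were around the 59.9 CPM that a count of 0 allows. Isg15, an interferon-induced ubiquitin-like protein, was at least 4.00-fold lower. In Crabp1-zero fibroblasts Cxcl1 fell by 1.29 as well (SE 0.151, edgeR adjusted p = 0.00077). With few counts left, Cdkn1c was 34.8-fold lower (counting interval 9.63 to 288), Crispld1 9.46-fold (2.61 to 78.2), Mmd 4.54-fold (1.55 to 22.1) and Il34 4.48-fold (1.23 to 37.1).

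By list, 14 papillary-dermis genes tested, Crabp1 among them, had a median log2 fold change of 1.56 in that library, against -0.715 over all genes. Apcdd1, Ntn1, Pdpn, Dkk2, Axin2 and Prdm1 rose, and Inmt and Col13a1 fell. The median was 1.46 for 22 Wnt modulators and targets and -3.66 for 14 chemokines. The Wnt list shares Apcdd1, Dkk2 and Axin2 with the papillary list, so these 2 medians are not separate observations. Among the 13 reticular-dermis genes, Gpx3, Clec3b and Fbln1 rose, and Mgp, Mfap5, Col14a1, Plac8 and Ptgis fell. For 13 mitochondrially encoded genes the median was 1.17, beside the higher mitochondrial share of these cells. It was also positive in Crabp1-zero fibroblasts (0.698) and all fibroblasts (0.837). The part of RNA quality in the other values was not tested.

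The genotype effect was also compared between kinds of cell, with the library as a block in edgeR. Of 10108 genes, 44 (0.435%) had a higher log2 fold change in the Crabp1-positive cells than in Crabp1-zero fibroblasts at adjusted p under 0.05, and 144 (1.42%) a lower one. Postn was among the latter, with a difference of -3.16, and so was Ccl11 at -2.65. These differences have the 13 cells of Ikkb_cKO 3 on the Ikkb_cKO side, so they describe that library.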

How the data were processed

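The deposited values are whole-number UMI counts per gene and cell barcode, which the authors made with Cell Ranger 1.3.0 on mm10, per the submitters' processing notes; the matrix headers name software version 3.0.1. The 5 libraries hold 45683738 counts in 11084 barcodes and 31053 genes, and counts of genes that share reads with near-identical copies are uncertain. Cells were selected by the rule in the text with Python 3.11.15 and scanpy 1.11.5. Scrublet marked 0.217% of cells, too few to have worked, and none were removed. Counts were summed per library and cell class. They were tested with edgeR 4.0.16 in R 4.3.3 (quasi-likelihood, filterByExpr, TMM, Benjamini-Hochberg), with limma 3.58.1 and DESeq2 1.42.0 as alternatives, after tests on simulated data. Libraries needed at least 10 Crabp1-positive cells, which left out Ikkb_cKO 1 and 2. Ratios used CPM + 10. Named genes were the largest changes past the threshold without overlap, the 15 leading genes and up to 3 per list; rankings skipped gene models and ribosomal, mitochondrial, haemoglobin and sex-linked genes. The rule, lists and members were chosen with earlier results of these data known. Promoters are RefSeq sequences; the tables matched 8 of the 15 leading genes, 7 of the 15 leading in WT and 10 of the 15 lowest.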

Additional observations from a re-analysis of the deposited data

Results flagged for a closer look

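The genotype effect was tested for a difference between the Crabp1-positive cells and the Crabp1-zero fibroblasts, with edgeR and the library as a block. It differed for 188 of 10108 genes at adjusted p under 0.05, of which 44 (0.435%) had the higher fold change in Crabp1-positive cells and 144 (1.42%) the lower. The Ikkb_cKO side of the Crabp1-positive cells is the 13 cells of Ikkb_cKO 3, and the median difference over all genes was -0.816.

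Postn differed by -3.16 on the log2 scale and Ccl11 by -2.65. Among the largest positive differences were Igfbp3 at 4.88, Tnc at 3.99, Prelp at 3.89, Igfbp5 at 3.68 and Tgfbi at 3.41. All Igfbp3 UMIs of that library's Crabp1-positive cells came from 1 cell. Tnc was past the threshold in 2 of 4 alternative fits.

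The largest negative differences were Gpc3 at -13.07, Penk at -12.69, H19 at -12.65, Cxcl1 at -12.49 and Mgp at -12.20. All 5 genes were at 0 in those 13 cells, so these fitted sizes depend on the prior count and are no bounds. In the 2 Crabp1-positive cells of Ikkb_cKO 2, which the fit left out, Mgp read 3798 CPM.

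Of the fibroblasts with at least 2 Crabp1 UMIs in Ikkb_cKO 3, 66.7% carried at least 2 Coch UMIs and were outside the rule, against 1.45% in the WT libraries.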

How the results depend on the processing

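Libraries set the precision: 2 against 3 for shares and fibroblasts, and 2 against 1 for the Crabp1-positive cells. The lower share in Ikkb_cKO kept its direction in all settings run. The Crabp1-positive cells gave 792 calls, 235 with the DESeq2 Wald test, 446 with limma, 1448 at 1 Crabp1 UMI or more and 426 with equal cell numbers, and the median over all genes, -0.715, was -1.9 with no count filter. With equal cell numbers the fit of Crabp1-positive cells tested 2684 genes, against 8873 in the main fit. Crabp1-zero fibroblasts gave 2626 calls of 8330 genes tested, and 1446 with the DESeq2 Wald test. Fewer genes were tested in 2 settings, with 1296 calls of 5925 thinned to 1500 UMIs and 1204 of 4728 with equal cell numbers. With a library left out the calls were 251 to 2645. All fibroblasts gave 3740 of 10447, 2048 of 8013 thinned and 466 to 5633 with a library left out. Leaving out a WT library gave the low ends, and Ikkb_cKO 1 and Ikkb_cKO 3 respectively the high ends. The difference of effects gave 188 (155 to 260).

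In Crabp1-positive cells the sign turned for Tppp3 (0.73) and Hlf (2.26) at 1 UMI or more, and for Sfrp2 (0.56) and Cthrc1 (0.42) with equal cells. With each library left out in turn, Ccl7 ran from -0.52 to 0.64 and Entpd1 from -1.67 to 0.86 in Crabp1-zero fibroblasts, and in all fibroblasts Rgcc from -1.10 to 1.39, Col7a1 from -2.51 to 0.70, Tgfbi from -0.44 to 0.57 and Entpd1 from -0.93 to 0.33, where leaving out Ikkb_cKO 3 turned the sign. With fibroblasts that carry Col6a5 it turned in Crabp1-zero fibroblasts for Postn (0.40), Col15a1 (-0.66) and Ccl11 (0.62). The cause was not tested.

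Deviations of same-numbered libraries from their genotype means had correlations of -0.020 and -0.005 in Crabp1-zero fibroblasts and 0.039 and 0.005 in all. With 2 WT libraries the WT deviations mirror each other. The check therefore cannot tell whether same-numbered libraries share a litter, day or batch, which the labels do not say. With the replicate block the calls were 1890 in Crabp1-zero fibroblasts and 5389 in all. Ikkb_cKO 3 is the only library with its number, so the block takes it out of the genotype estimate. The block is therefore no separate check from leaving that library out. The sign turned for Ccl7 (-0.51) and Entpd1 (-1.66) in Crabp1-zero fibroblasts. In all fibroblasts it turned for Eln (-0.24), Rgcc (-1.10), Col7a1 (-2.50), Tgfbi (-0.43) and Entpd1 (-0.93). In Crabp1-positive cells the block, a left-out WT 1, WT 2 or Ikkb_cKO 3, the stricter cell filter and thinning could not be fitted, nor left-out libraries for the difference of effects.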

Other observations

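In Ikkb_cKO 3, 32 fibroblasts had at least 2 Crabp1 UMIs but were outside the rule. Coch put most of them there: 30 of the 45 cells with at least 2 Crabp1 UMIs had at least 2 of Coch. Their Coch and Crabp1 levels therefore follow from how they were picked. Coch read 12970 CPM there and was present in 93.8% of cells. Crabp1 read 3882 CPM, Dkk2 1395, Igfbp5 3460 and Postn 2256, while Ccl11 read 47.8. The 13 Crabp1-positive cells of that library had Dkk2 at 699 CPM and Igfbp5 at 1318, and the WT Crabp1-positive cells had Dkk2 at 9.32 and 9.06 CPM. Dkk2 and Igfbp5 were thus high in both sets of Crabp1-carrying cells of Ikkb_cKO 3. Higher levels were not particular to cells with Crabp1. A Dkk2 UMI was found in 19.4% of the Crabp1-zero fibroblasts of that library, against 3.21% and 2.68% in WT. Igfbp5 also rose in the fit of Crabp1-zero fibroblasts. These sets were compared after their values were seen, and no test was made.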
